A study of Mus musculus with 12 samples.

Results

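Mouse genes named Zfp and a number encode proteins with zinc fingers, most of them in tandem arrays of the C2H2 type that read DNA. The genes analysed here were the rows whose symbol is Zfp followed by digits only, with a mean of at least 2 CPM (counts per M counted reads of a library) over the 6 vehicle libraries. Zfp36, a CCCH finger protein that takes messenger RNAs to decay, was left out by the same rule. Of 371 such genes in a table of 50559, 262 met the level and 109 did not. RNA sequencing was done on bone marrow-derived macrophages of C57BL/6 mice, cells grown out of bone marrow in culture. The groups were 6 libraries from macrophages given house dust mite (HDM) allergen, an extract used to provoke airway allergy, and 6 from macrophages given vehicle, both for 1 h. The labels give no age or sex of the animals, no genotype besides the strain, and are silent on whether the 6 libraries of a group are separate animals or dishes. The p-values therefore stand for the scatter among these 12 libraries, and part of that scatter may be technical. The genes were selected on their measured vehicle CPM, which also enters each fold change, so vehicle levels are given as a description.

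The largest group of these genes in mammals joins a KRAB domain to a row of fingers. The KRAB domain calls in the scaffold protein TRIM28 (KAP1), which gathers a histone methyltransferase and heterochromatin proteins, and many KRAB zinc finger proteins silence transposons or keep imprints this way. They spread by tandem duplication, so close relatives often sit side by side, and most are present at low RNA levels. Other numbered Zfp genes lack the domain and encode promoter-binding factors, chromatin partners, RNA-binding proteins or ubiquitin ligases.

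Library totals ran from 19.76 to 119.71 M counts with HDM and from 19.69 to 62.41 M with vehicle. The 262 genes had a median of 163 to 917.5 reads per gene in HDM libraries and of 169.5 to 533 in vehicle libraries. Libraries numbered 5 and 6 stood apart from those numbered 1 to 4 in both groups, so values within each set of numbers are given below. The 8 macrophage markers summed to 16232 to 20652 CPM with HDM and 16229 to 21186 CPM with vehicle, and 0 of 8 were called by edgeR, with 0 also at an unadjusted p under 0.05, by DESeq2 and by limma-voom. The 6 dendritic cell markers summed to at most 1.196 CPM with HDM and 0.853 CPM with vehicle, and the 6 lymphocyte markers to at most 0.129 CPM with HDM and 0.169 CPM with vehicle. The 6 neutrophil markers stayed within 3.75 to 6.01 CPM with HDM and 3.56 to 5.49 CPM with vehicle, and the 6 stromal and endothelial markers within 14.03 to 37.9 CPM with HDM and 12.8 to 39.8 CPM with vehicle. The 6 mast cell and basophil markers summed to at most 1.33 CPM with HDM and 1.12 CPM with vehicle, with Tpsb2, Mcpt8 and Fcer1a at 0 in every library. Of the 9 tested markers of these other cells, 0 were called by edgeR without a block for library number, DESeq2 or limma-voom, and 1, of stroma and endothelium, had an unadjusted p under 0.05. With the block, the stromal markers Col1a1 (0.445 CPM with HDM and 1.11 CPM with vehicle, edgeR, adjusted p = 0.00141) and Col1a2 (0.464 CPM with HDM and 0.935 CPM with vehicle, adjusted p = 0.0485) were called lower, and their part in the results was not tested. In such bulk samples fewer cells of a type and less RNA per cell cannot be told apart.

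After 1 h of HDM, 50 of the 262 numbered Zfp genes were called lower and 3 higher by edgeR's quasi-likelihood test at an adjusted p under 0.05 over 13530 tested genes. That is 19.1% lower and 1.15% higher, beside 2.47% lower and 2.90% higher over all tested genes. The falls were led by KRAB zinc finger genes, among them Zfp472, Zfp87, Zfp748 and Zfp963 with log2 fold changes from -1.17 to -0.98. The 3 rises were Zfp217 and Zfp703, whose proteins work with corepressors, and Zfp438. With library number as a block, 90 genes (34.4%) were called lower and 11 (4.20%) higher, beside 6.81% and 7.90% over all tested genes, and all 50 of the first calls were among the 90.

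The shift was small for most genes. The median log2 fold change, HDM over vehicle, was -0.11 over the 262 genes and -0.0048 over all tested genes, and 194 of the 262 (74.0%) lay below 0, beside 52.5% of all tested genes. Among the 50 called falls the median log2 fold change was -0.49 and the smallest -0.17. A fall of at least 1.5-fold was fitted for 19 of them and one of at least 2-fold for 2. In 45 genes (17.2%) all 6 HDM libraries lay below all 6 vehicle libraries, beside 2.59% of all tested genes, and 38 of these 45 were among the called falls. The opposite order held for 1 gene, beside 2.07% of all tested genes. HDM was below vehicle in all 6 numbers for 105 genes (40.1%), beside 13.0% of all tested genes, and above in all 6 for 9 genes, beside 6.95%. These orders use CPM over the column total, without the TMM factors of the fit. Those factors were lower for HDM in every number, as 1.006 against 1.019 in number 1. So these orders place HDM slightly lower than the fit does, for all tested genes as well.

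Summed over the 262 genes, transcripts made up 4256 ± 173 CPM with HDM and 4523 ± 142 CPM with vehicle (SD, n = 6 each). HDM libraries ran from 4064 to 4467 CPM and vehicle libraries from 4403 to 4717 CPM, so the groups overlapped. The fall was seen in every number, here on the log2 of CPM scaled by TMM factors, with 0.5 added. The median log2 difference over the 262 genes between HDM and vehicle libraries of equal number was -0.073, -0.079, -0.085, -0.093, -0.14 and -0.12 for numbers 1 to 6, while the median over all tested genes stayed between -0.0051 and 0.00052. In libraries numbered 1 to 4 alone, 41 genes were called lower and 4 higher, beside 2.88% and 5.00% of all genes tested there. In those numbered 5 and 6 alone, 64 were called lower and 5 higher, beside 4.22% and 4.25%.

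**Figure D1:**
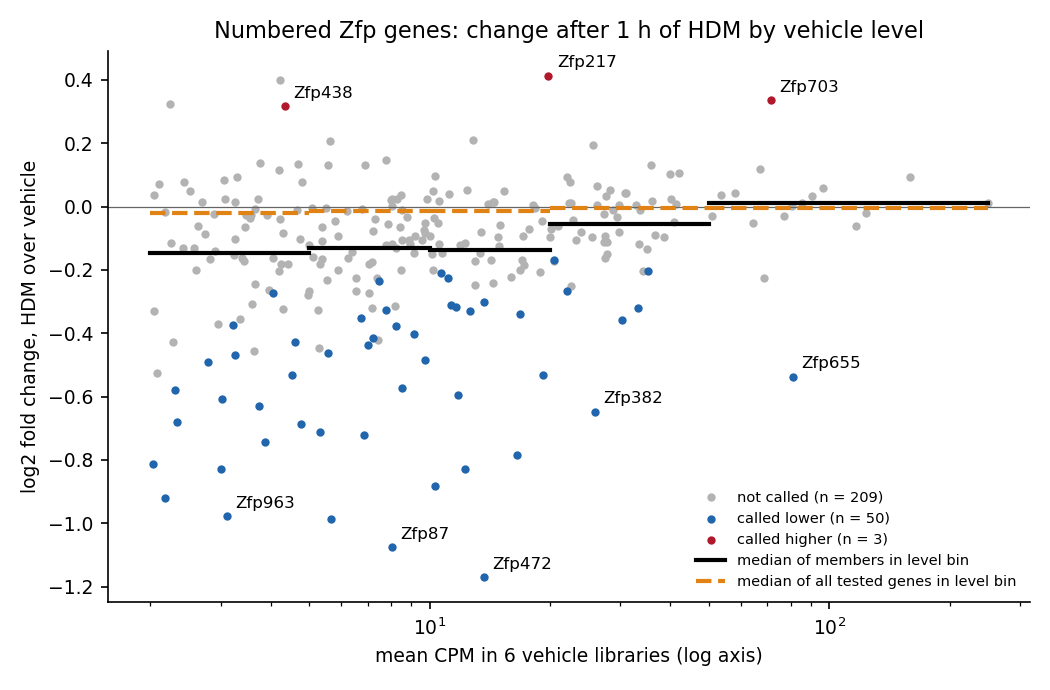
Log2 fold change of each of the 262 numbered Zfp genes, HDM over vehicle, against its mean CPM in the 6 vehicle libraries (log axis), with calls in colour and bars for the median of these genes and of all tested genes in each of 5 level bins. The 50 called falls lie mostly under 20 CPM, where the medians of these genes are near -0.14, and the median at 50 CPM and above is 0.011.

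The fall differed across vehicle levels. Of 74 genes at 2 to 5 CPM, 16 (21.6%) were called lower, beside 3.82% of all tested genes of that level. The counts were 14 of 69 (20.3%, beside 4.48%) at 5 to 10 CPM and 13 of 52 (25.0%, beside 3.98%) at 10 to 20 CPM. They were 6 of 50 (12%, beside 3.06%) at 20 to 50 CPM and 1 of 17 (5.88%, beside 1.44%) at 50 CPM and above. So from 2 CPM up the share was between 20.3% and 25.0% as far as 20 CPM and lower above it, and in each of these 5 bins it exceeded that of all tested genes, though the top bin rests on 1 gene. Of the 52 tested numbered Zfp genes below 2 CPM, which lie outside the 262, 2 (3.85%) were called lower and 0 higher, or 5 lower and 0 higher with the block. Over tested genes of all levels, 2.47% were lower and 2.90% higher, or 6.81% and 7.90% with the block. The share of all tested genes below 2 CPM was not computed. The median log2 fold change of the 52 was -0.10, and 36 lay below 0. Of the 52, DESeq2 called 3 lower, limma-voom 2, and both called 0 higher. At an unadjusted p under 0.05, 7 were lower and 0 higher.

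The size of the change was also greater below 20 CPM than above it, though its order among the 3 lower bins was not that of the called shares. The median log2 fold change was -0.15, -0.13, -0.14, -0.055 and 0.011 from the lowest to the highest bin, beside -0.019, -0.014, -0.014, -0.0031 and -0.0029 for all tested genes. A fall beyond -0.3 on the log2 scale was fitted for 23 genes (31.1%) in the lowest bin, then for 18 (26.1%), 10 (19.2%), 3 (6.00%) and 1 (5.88%). Over all tested genes the same fall was fitted for 7.55%, 5.02%, 2.92%, 1.23% and 0.660%. The median standard error was 0.11 in the lowest bin and 0.049 in the highest, so the bins with the fewest falls were those measured most closely.

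With library number as a block, the called falls from the lowest to the highest bin were 24, 25, 24, 15 and 2. These are 32.4%, 36.2%, 46.2%, 30.0% and 11.8% of the genes, beside 7.17%, 9.87%, 9.52%, 8.76% and 6.55% of all tested genes. Binning by the mean over all 12 libraries, which weighs both groups alike, gave 20%, 22.9%, 19.1%, 10.6% and 5.88%. Over all tested genes in the same bins the shares were 3.91%, 5.02%, 3.90%, 2.77% and 1.29%.

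**Figure D2:**
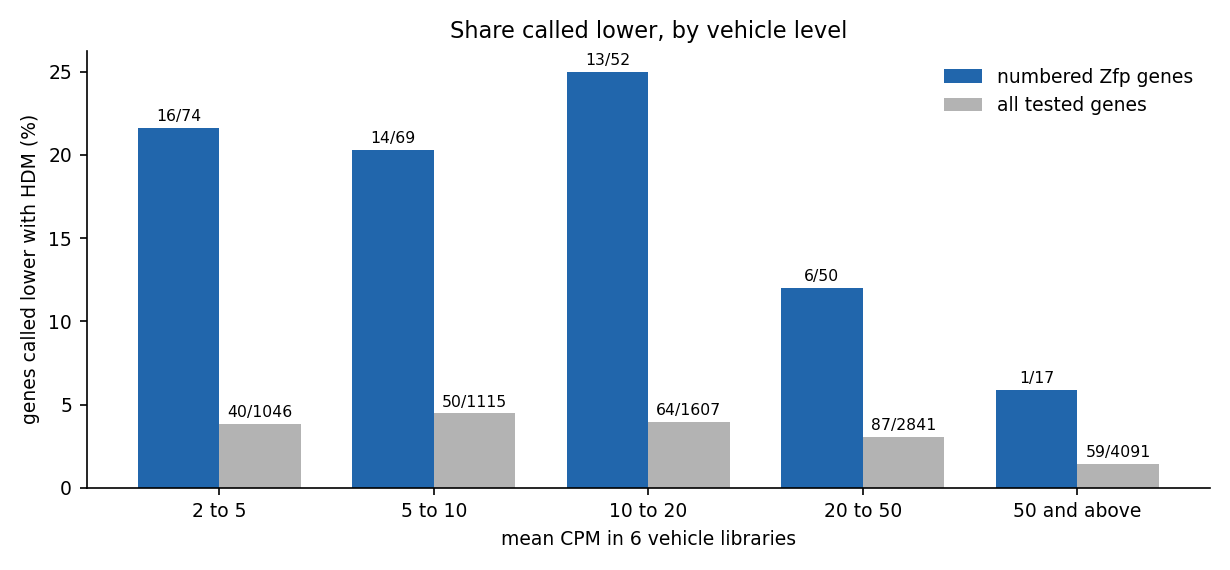
Share of genes called lower with HDM (percent, from 0) in 5 bins of mean vehicle CPM, for the numbered Zfp genes and for all tested genes, with called over tested counts above the bars. The share of numbered Zfp genes is 20.3% to 25.0% up to 20 CPM, 12% at 20 to 50 CPM and 5.88% at 50 CPM and above.

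Every one of the 262 genes passed the filter on low counts. At the lower edge, Zfp85, a KRAB gene at 1.125 ± 0.20 CPM with HDM and 2.03 ± 0.20 CPM with vehicle, was the lowest included. Next came Zfp691 at 1.62 CPM with HDM and 2.05 CPM with vehicle, and Zfp947 at 2.09 CPM with HDM and 2.05 CPM with vehicle. Just outside were Zfp383 at 1.19 CPM with HDM and 1.998 CPM with vehicle, Zfp941 at 1.32 CPM with HDM and 1.99 CPM with vehicle, and Zfp759 at 1.84 CPM with HDM and 1.98 CPM with vehicle. Of the 109 genes below the level, 52 passed the filter, 31 had no read in any vehicle library and 24 none in any of the 12.

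Zfp472 fell most. It encodes a KRAB protein of 534 residues with 12 fingers. Its HDM libraries ran from 4.65 to 7.14 CPM with a median of 5.97, and its vehicle libraries from 12.1 to 14.9 CPM with a median of 13.6. The highest HDM library was well below the lowest vehicle library. The log2 fold change was -1.17 ± 0.09 (SE; edgeR, adjusted p = 2.61e-06), and it was -1.12 in numbers 1 to 4 and -1.30 in numbers 5 and 6.

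Zfp87 and Zfp748, which are neighbours among these genes in RefSeq's order, also encode KRAB proteins, with 15 and 23 fingers. Zfp87 ranged from 2.86 to 4.78 CPM with HDM (median 3.97) and from 7.30 to 9.03 CPM with vehicle (median 8.19). Zfp748 ranged from 2.13 to 3.78 CPM with HDM (median 2.73) and from 4.88 to 6.49 CPM with vehicle (median 5.77). Neither gene's groups overlapped. The log2 fold changes were -1.08 ± 0.11 for Zfp87 (SE; edgeR, adjusted p = 3.68e-05) and -0.99 ± 0.12 for Zfp748 (adjusted p = 0.00025).

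Zfp963 and Zfp866 are KRAB genes of another run of neighbours. Zfp963 ranged from 1.03 to 2.26 CPM with HDM (median 1.42) and from 2.59 to 3.71 CPM with vehicle (median 3.15). Of its transcript windows of 50 bases, 40.0% also occur in another gene's transcript, so its reads could be split with a relative. Zfp866 ranged from 5.88 to 7.54 CPM with HDM (median 6.98) and from 11.7 to 13.7 CPM with vehicle (median 11.98). Both were separated between the groups, with log2 fold changes of -0.98 ± 0.17 for Zfp963 (SE; edgeR, adjusted p = 0.00366) and -0.83 ± 0.07 for Zfp866 (adjusted p = 4.05e-06).

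Zfp709, a KRAB gene with 18 fingers, ranged from 4.78 to 6.58 CPM with HDM (median 5.47) and from 9.35 to 12.5 CPM with vehicle (median 9.71). Zfp84, a KRAB gene with 11 fingers, ranged from 8.62 to 10.1 CPM with HDM (median 9.68) and from 14.9 to 18.4 CPM with vehicle (median 16.2). In both genes a wide gap separated the groups. The log2 fold changes were -0.88 ± 0.08 (SE; edgeR, adjusted p = 1.79e-05) and -0.79 ± 0.06 (adjusted p = 2.46e-06).

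A further 4 KRAB genes were among the 12 largest falls. Zfp418 ranged from 0.759 to 1.66 CPM with HDM (median 1.03) and from 1.746 to 2.72 CPM with vehicle (median 2.22), a log2 fold change of -0.92 ± 0.18 (SE; edgeR, adjusted p = 0.00752). Zfp85 ranged from 0.860 to 1.46 CPM with HDM (median 1.09) and from 1.82 to 2.29 CPM with vehicle (median 2.01), at -0.81 ± 0.12 (adjusted p = 0.00136). These KRAB genes had groups that came close without touching, and 25.6% of the windows of Zfp85 occur in another gene. Zfp763, also a KRAB gene, ranged from 1.74 to 2.79 CPM with HDM (median 2.27) and from 3.25 to 4.88 CPM with vehicle (median 3.78), at -0.74 ± 0.13 (adjusted p = 0.0029). Zfp39, a KRAB gene, ranged from 0.883 to 2.33 CPM with HDM (median 1.74) and from 2.64 to 3.49 CPM with vehicle (median 2.97), at -0.83 ± 0.19 (adjusted p = 0.0213). HDM libraries of Zfp39 spread widely, its log2 fold change was -0.67 in numbers 1 to 4 and -1.37 in numbers 5 and 6, and its call was lost without HDM 1, Vehicle 2 or Vehicle 3.

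Zfp503 was the only one of the 12 with no match to the KRAB profile and no finger by the pattern used. Its protein, known as Nolz1, is a transcriptional repressor of the developing striatum and limb and belongs to the same small family as Zfp703. It ranged from 3.76 to 4.59 CPM with HDM (median 3.96) and from 5.45 to 7.77 CPM with vehicle (median 6.82). The groups did not overlap, and the log2 fold change was -0.72 ± 0.10 (SE; edgeR, adjusted p = 0.000705). Its relative Zfp703 was called higher.

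**Figure D3:**
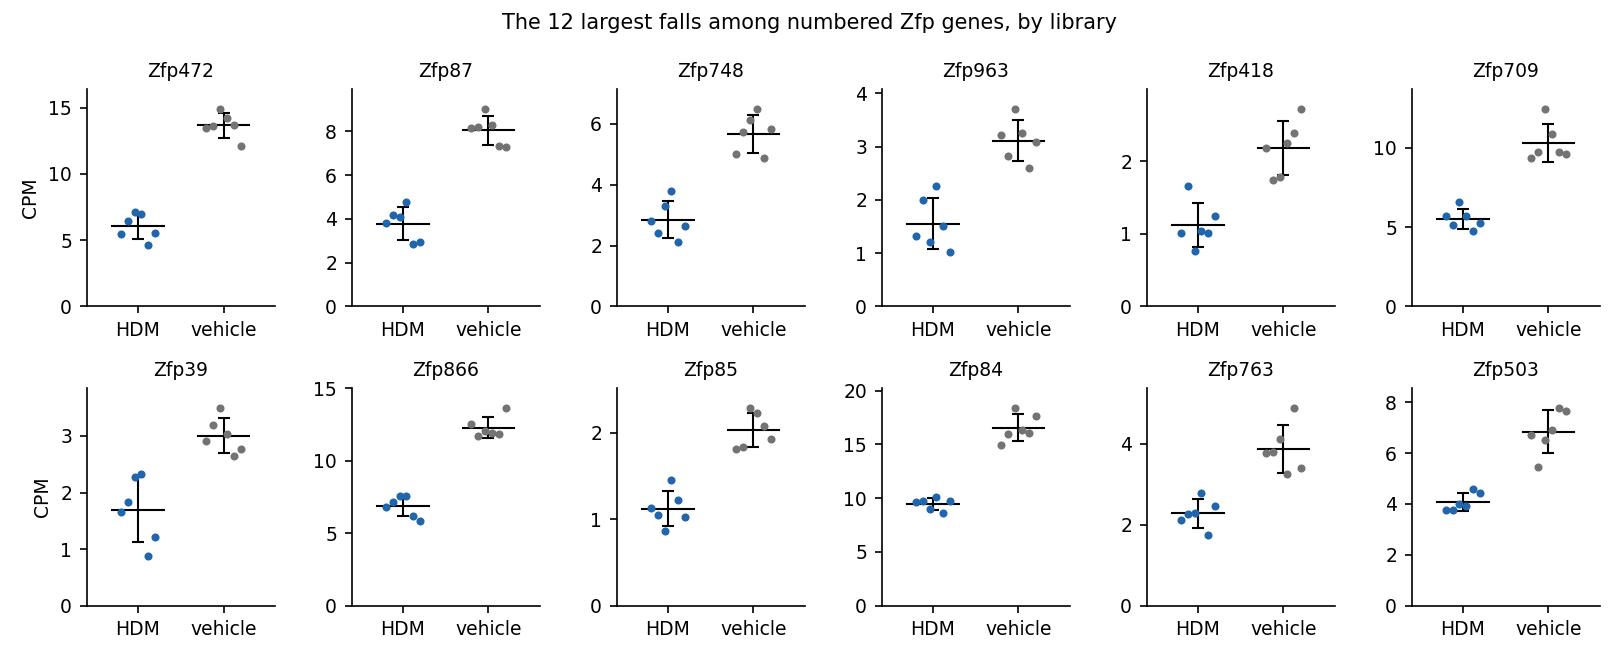
CPM of the 12 numbered Zfp genes with the largest called falls in each of the 6 HDM and 6 vehicle libraries, points in number order, lines for the mean and bars for the SD. In each of the 12 genes every HDM point lies below every vehicle point, and Zfp472 averages 6.03 CPM with HDM and 13.7 CPM with vehicle.

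The promoters shown are of falling genes picked because they hold a short element discussed further on. That of Zfp106, a highly expressed gene that was not called, is added as an example without it. Each is the stretch of 120 bases before the annotated start in RefSeq's GRCm38.p6 table, written in the gene's own direction. Capitals mark the letters CCAAT or ACTACA on either strand, and the longer element of ACTACA, any 2 letters and TCCCA where it is present. The stretches are chr17:32965711-32965830 on the plus strand for Zfp472, chr13:67553153-67553272 on the minus strand for Zfp748, chr13:67755203-67755322 on the minus strand for Zfp85, chr7:29768432-29768551 on the plus strand for Zfp84, chr7:7171233-7171352 on the plus strand for Zfp418 and chr2:120563860-120563979 on the minus strand for Zfp106.
Zfp472: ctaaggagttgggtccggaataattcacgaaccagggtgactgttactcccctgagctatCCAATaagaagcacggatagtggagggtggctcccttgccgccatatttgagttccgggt
Zfp748: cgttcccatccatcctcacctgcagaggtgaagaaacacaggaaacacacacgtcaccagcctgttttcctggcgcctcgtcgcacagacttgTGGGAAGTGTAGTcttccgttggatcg
Zfp85: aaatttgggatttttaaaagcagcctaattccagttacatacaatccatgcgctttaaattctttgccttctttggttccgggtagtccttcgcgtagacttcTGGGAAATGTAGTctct
Zfp84: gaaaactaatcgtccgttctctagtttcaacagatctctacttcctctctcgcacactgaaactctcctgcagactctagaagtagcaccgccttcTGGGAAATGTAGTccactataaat
Zfp418: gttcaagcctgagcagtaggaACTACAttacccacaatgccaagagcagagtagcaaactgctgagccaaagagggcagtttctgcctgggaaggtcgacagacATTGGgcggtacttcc
Zfp106: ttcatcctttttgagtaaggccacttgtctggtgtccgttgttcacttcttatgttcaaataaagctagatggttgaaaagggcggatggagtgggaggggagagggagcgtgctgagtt

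Zfp748, Zfp85 and Zfp84 carry the longer element close to the start, in the reverse direction. Zfp418 holds the short ACTACA and, further down, CCAAT in reverse. Zfp472 holds only CCAAT, and the stretch of Zfp106 holds neither. These motifs were chosen after their shares had been seen, and a match is a description of letters only.

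Among abundant genes 1 fall stood out, picked after its values were seen. Zfp655 was the only called fall among the 17 genes at 50 CPM or more. It ranged from 52.1 to 61.3 CPM with HDM (median 54.1) and from 72.4 to 90.2 CPM with vehicle (median 80.6). The groups were apart, and the log2 fold change was -0.54 ± 0.07 (SE; edgeR, adjusted p = 0.000182). Zfp382, a KRAB gene picked in the same way from the bin below, averaged 16.3 ± 2.4 CPM with HDM and 25.9 ± 1.5 CPM with vehicle (SD, n = 6 each), at -0.65 ± 0.08 (adjusted p = 0.000233).

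The 3 called rises were smaller than the leading falls and less secure. Zfp217, whose human counterpart sits in corepressor complexes and is amplified in breast cancers, ranged from 20.8 to 31.6 CPM with HDM (median 26.8) and from 16.1 to 22.5 CPM with vehicle (median 19.99). Its groups overlapped, yet in each of the 6 numbers the HDM library was the higher. The log2 fold change was 0.41 ± 0.10 (SE; edgeR, adjusted p = 0.0238), and the call was lost without HDM 2, HDM 3 or Vehicle 1. Zfp703, a corepressor-associated protein of luminal breast cells in humans, ranged from 85.3 to 92.0 CPM with HDM (median 90.2) and from 59.7 to 79.6 CPM with vehicle (median 75.3). All of its HDM libraries were above all of its vehicle libraries, at 0.34 ± 0.08 (adjusted p = 0.0225), and the call was lost without HDM 5. Zfp438 ranged from 4.68 to 6.09 CPM with HDM (median 5.35) and from 3.95 to 4.70 CPM with vehicle (median 4.44). Its groups just overlapped, at 0.32 ± 0.08 (adjusted p = 0.0462), and the call was lost on leaving out any of 10 libraries, all but HDM 2 and HDM 4.

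The 6 most abundant genes were not called without the block. Zfp106, an RNA-binding protein needed by motor neurons and muscle in mice, ranged from 235.0 to 258.1 CPM with HDM (median 250.3) and from 234.1 to 259.6 CPM with vehicle (median 253.1). The groups coincided, at a log2 fold change of 0.013 ± 0.028 that turned to -0.0067 with total library sizes and -0.0035 with upper-quartile factors. Zfp710 averaged 167.8 ± 17.6 CPM with HDM and 159.5 ± 19.4 CPM with vehicle (SD, n = 6 each). It was not called without the block (log2 0.09, edgeR, adjusted p = 0.769) but was called higher with it (adjusted p = 0.0155). Zfp91, a ubiquitin ligase of the non-canonical NF-kB pathway, averaged 120.1 CPM with HDM and 123.2 CPM with vehicle. Zfp207, also BuGZ, which in human cells loads the checkpoint protein Bub3 onto kinetochores, averaged 110.5 CPM with HDM and 116.9 CPM with vehicle. Zfp263, a DNA-binding factor, averaged 99.4 CPM with HDM and 96.6 CPM with vehicle, and Zfp638, which binds cytidine-rich DNA and RNA, 91.5 CPM with HDM and 90.6 CPM with vehicle. These last 4 genes had overlapping groups and log2 fold changes between -0.061 and 0.058. Per kb of transcript the order of levels changed, since Zfp207 had 70.8 CPM per kb with HDM and 74.8 with vehicle. Zfp106, with a long transcript, had 27.3 CPM per kb with HDM and 27.4 with vehicle.

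**Figure D4:**
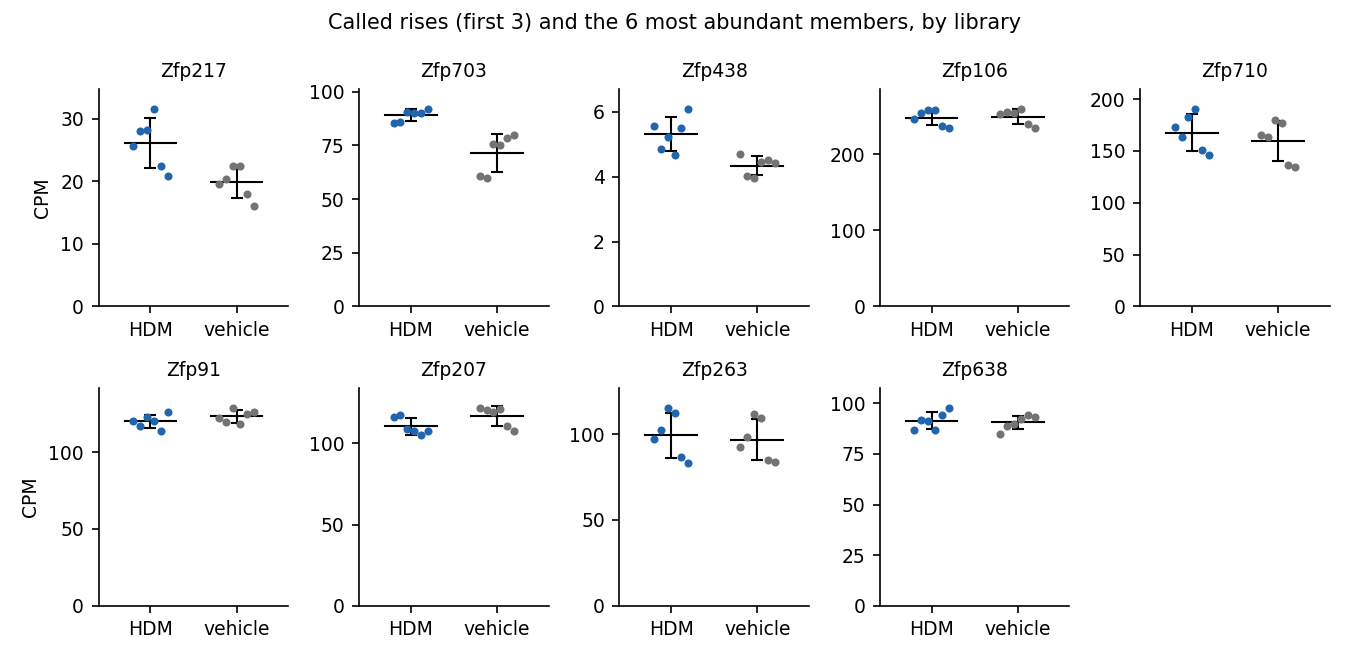
CPM of the 3 numbered Zfp genes called higher (Zfp217, Zfp703, Zfp438) and of the 6 with the highest vehicle level, in each of the 6 HDM and 6 vehicle libraries, with the mean and SD. HDM and vehicle points of Zfp703 do not overlap, those of Zfp217 and Zfp438 do, and the 6 abundant genes have nearly equal means.

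The genes were then split by domain, using a KRAB profile and a finger pattern run on the longest GENCODE protein of each gene. The profile matched 149 of 258 genes with a protein model. Of these, edgeR called 35 (23.5%) lower and 0 higher, with a median log2 fold change of -0.15, beside 2.47% lower and 2.90% higher over all tested genes. At an unadjusted p under 0.05, 2 were higher, and DESeq2 and limma-voom called 0 higher. With library number as a block, 61 (40.9%) were lower and 2 higher, beside 6.81% and 7.90% over all tested genes. Of the 109 genes without a match, 13 (11.9%) were lower and 3 higher, with a median of -0.061, and 27 (24.8%) lower and 9 higher with the block. Diverged KRAB domains may be missed by the profile. The other 2 called falls, Zfp939 and Zfp267, were among the 4 genes with no protein model by symbol.

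Domain and level moved together. The median vehicle level was 6.54 CPM for genes with the profile match and 19.2 CPM for those without. At 2 to 5 CPM, 14 of 57 genes with a match and 1 of 15 without were called lower. The counts were 9 of 51 with and 4 of 17 without at 5 to 10 CPM, and 9 of 27 with and 4 of 24 without at 10 to 20 CPM. They were 3 of 12 with and 3 of 38 without at 20 to 50 CPM, and 0 of 2 with and 1 of 15 without above that. The median log2 fold change was lower with a match in all 5 bins, from -0.14 against -0.11 in the lowest to -0.11 against 0.013 in the highest, where only 2 genes matched. The split by domain was not tested, and no test of the difference across levels was made.

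Summed over the 149 KRAB genes, levels were 1226 ± 70 CPM with HDM and 1396 ± 61 CPM with vehicle (SD, n = 6 each). HDM libraries ran from 1137 to 1309 CPM and vehicle libraries from 1349 to 1498 CPM, without overlap. Over the 109 other genes the sums were 3005 ± 104 CPM with HDM and 3097 ± 84 CPM with vehicle, which overlapped.

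By number of fingers, 4 of 40 genes with 0 to 4 fingers (10%) were called lower, 7 of 74 (9.46%) with 5 to 9, 23 of 90 (25.6%) with 10 to 14 and 14 of 54 (25.9%) with 15 or more, beside 2.47% of all tested genes. Level moved with the number of fingers, and the median vehicle level was 22.2, 11.98, 7.18 and 7.83 CPM in the same order. The highest number was 36. Among genes without a KRAB match the counts were 4 of 34, 1 of 39, 5 of 22 and 3 of 14 in the same order. Among KRAB genes they were 0 of 6, 6 of 35, 18 of 68 and 11 of 40. Called falls were found at all lengths of array, with higher shares at 10 or more fingers, in a split that was not tested. The part of level in it was not tested either.

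Related families outside the symbol rule are set beside these by count only, against 2.47% lower and 2.90% higher over all tested genes. Of 34 tested Zbtb genes, zinc finger factors with a BTB domain, 5 (14.7%) were lower and 0 higher, with a median log2 fold change of -0.095. Of 9 Zkscan and 10 Zscan genes, whose proteins carry a SCAN domain, 3 (33.3%) and 2 (20%) were lower, with medians of -0.12 and -0.13. Of 38 other genes at 2 CPM or more with a KRAB profile match and a finger but another name, 10 (26.3%) were lower and 0 higher, with a median of -0.21. In these 4 families edgeR without the block, DESeq2 and limma-voom called 0 genes higher, and 1 Zbtb gene was higher at an unadjusted p under 0.05. With the block, 12 Zbtb genes were lower and 1 higher, Zbtb11 (edgeR, adjusted p = 0.0329). The block also gave 4 Zkscan, 2 Zscan and 19 other KRAB genes lower and 0 higher, beside 6.81% lower and 7.90% higher over all tested genes.

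The partners of KRAB proteins are set beside 2.47% lower and 2.90% higher over all tested genes, shares at which 15 genes would hold few calls or none. Of 15 tested, 0 were called by edgeR without the block, by DESeq2 or by limma-voom, and 3 had an unadjusted p under 0.05 (Trim28, Hdac2 and Morc3). Trim28, the scaffold itself, ranged from 152.6 to 164.8 CPM with HDM (median 158.6) and from 163.5 to 172.6 CPM with vehicle (median 169.0). Its groups barely overlapped, and it was lower with HDM in all 6 numbers, at a log2 fold change of -0.059 ± 0.026 (SE; edgeR, adjusted p = 0.33). Setdb1, the methyltransferase, averaged 76.2 CPM with HDM and 75.9 CPM with vehicle. With the block, Hdac2, a histone deacetylase (adjusted p = 0.0305), and Morc3, an ATPase that represses transposons (0.0191), were higher, and Uhrf1, which guides DNA methylation upkeep, was lower (0.0122). That is 1 lower and 2 higher of 15, beside 6.81% and 7.90% over all tested genes.

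Role lists among the numbered genes, here and below, are set beside 2.47% lower and 2.90% higher over all tested genes. With the block these shares were 6.81% and 7.90%. At such shares a list of 5 to 12 genes would hold few calls or none, so absent calls say little about it. In the list of transposon and imprint control, 5 of 8 genes met the level, and 0 of 5 were called by edgeR without the block, DESeq2 or limma-voom. At an unadjusted p under 0.05 there was 1, Zfp568. Zfp568, which represses a placental Igf2 transcript in mice, ranged from 13.0 to 15.7 CPM with HDM (median 14.9) and from 11.5 to 16.01 CPM with vehicle (median 11.95). One vehicle library lay above every HDM library, and the log2 fold change was 0.21 ± 0.10 (SE; edgeR, adjusted p = 0.341), called higher with the block (0.012). Zfp809, which silences murine leukaemia virus at its primer binding site, averaged 9.06 CPM with HDM and 9.67 CPM with vehicle, at -0.075 (adjusted p = 0.689). Zfp932, which binds endogenous retroviruses and shares 44.7% of its windows with another gene, averaged 8.04 CPM with HDM and 8.01 CPM with vehicle. Zfp961, another gene of the list, averaged 6.09 CPM with HDM and 6.22 CPM with vehicle, and neither was called.

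Of 12 genes listed as promoter-binding activators and regulators, edgeR without the block, DESeq2 and limma-voom each called 0 lower and 2 higher. At an unadjusted p under 0.05, 2 were lower. The edgeR rises were Zfp217 and Zfp703, described above, whose proteins act with corepressors. Zfp703 has no finger by the pattern used. Zfp143, an activator of many housekeeping promoters, ranged from 19.8 to 22.1 CPM with HDM (median 21.4) and from 22.3 to 24.7 CPM with vehicle (median 23.1). The groups did not overlap, at a log2 fold change of -0.11 ± 0.04 (SE; edgeR, adjusted p = 0.166, and 0.0472 with the block). Zfp639 averaged 25.0 CPM with HDM and 27.3 CPM with vehicle, at -0.11 (adjusted p = 0.236, and 0.0335 with the block).

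Of 8 chromatin and corepressor partners, 0 were called by edgeR without the block, DESeq2 or limma-voom, 2 had an unadjusted p under 0.05 (Zfp687 and Zfp644), and with the block 1 was lower and 2 higher. Zfp687, a partner of Zfp592 and Zmynd8 in a chromatin-reading complex, averaged 18.7 ± 2.6 CPM with HDM and 22.5 ± 2.9 CPM with vehicle (SD, n = 6 each), with overlapping groups. Its log2 fold change was -0.25 ± 0.09 (SE; edgeR, adjusted p = 0.176, and 9.34e-05 with the block), and it was lower with HDM in all 6 numbers. Zfp644, a partner of the G9a methyltransferase, averaged 27.7 CPM with HDM and 29.7 CPM with vehicle, with no overlap, at -0.08 (adjusted p = 0.323). Zfp516, an activator of brown fat genes, averaged 71.9 CPM with HDM and 67.0 CPM with vehicle, and was called higher with the block (adjusted p = 0.00524). So was Zfp609, a partner of the cohesin loader Nipbl, at 38.6 CPM with HDM and 35.7 CPM with vehicle (0.0117).

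Of 10 genes with RNA, ribosome or ubiquitin roles, 0 were called by edgeR without the block, DESeq2 or limma-voom, 1 had an unadjusted p under 0.05 (Zfp622), and 1 was higher with the block. Zfp622, which matures the large ribosomal subunit, averaged 44.8 ± 1.9 CPM with HDM and 42.2 ± 1.9 CPM with vehicle (SD, n = 6 each). Its log2 fold change was 0.11 ± 0.04 (SE; edgeR, adjusted p = 0.215, and 0.0114 with the block). Zfp598, the ligase that marks collided ribosomes, averaged 34.0 CPM with HDM and 36.7 CPM with vehicle, and Zfp326, which links splicing to elongation, 23.2 CPM with HDM and 22.1 CPM with vehicle. The genes measured with the smallest standard error near 0 were Zfp106, Zfp592 (54.1 CPM with HDM and 53.4 CPM with vehicle), Zfp146 (38.9 CPM with HDM and 40.8 CPM with vehicle) and Zfp664 (59.0 CPM with HDM and 58.1 CPM with vehicle). Their log2 fold changes lay between -0.049 and 0.042, each with a standard error near 0.03.

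Numbered Zfp genes that lie together were compared along the RefSeq gene order. Starts less than 500 kb apart joined 104 of the 262 genes into 12 runs of at least 5, and 99 genes had no other within that distance. In the run of 12 KRAB genes around Zfp87, 6 were called lower (Zfp455, Zfp87, Zfp748, Zfp65, Zfp85 and Zfp273), with a median log2 fold change of -0.38. That is 50%, beside 2.47% of all tested genes. In the run of 5 around Zfp963, 3 (60%) were lower (Zfp869, Zfp963 and Zfp866), with a median of -0.36. Around Zfp747, 4 of 10 (40%) were lower, and all 10 lay below 0. With the block the counts in these 3 runs were 7, 4 and 7, beside 6.81% of all tested genes.

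Other runs held at most 2 called falls each, beside 2.47% of all tested genes, or 6.81% with the block. Around Zfp626, 2 of 5 (40%) were lower, or 3 with the block, with a median of -0.26. Around Zfp551, 2 of 6 (33.3%) were lower, or 4 with the block, with a median of -0.21. Around Zfp84, 2 of 10 (20%) were lower, or 3 lower and 1 higher with the block, with a median of -0.050. The largest run, of 21 genes around Zfp760 and 20 of them KRAB genes, had 2 called falls (Zfp51 and Zfp52, 9.52%), or 3 with the block, and a median of -0.028. The runs around Zfp26, Zfp235 and Zfp579, of 5 genes each, had 0 called by edgeR without the block, DESeq2 or limma-voom, with 2, 1 and 2 genes at an unadjusted p under 0.05. With the block, 1, 0 and 2 of their genes were called lower. Their medians were 0.0054, -0.064 and -0.17, and around Zfp579 all 5 lay below 0. The run around Zfp472 had 2 of 11 called (Zfp472 and Zfp763, 18.2%), or 7 of 11 (63.6%) with the block, and all 11 below 0. The run around Zfp775 had 1 of 9 called (11.1%), or 6 of 9 (66.7%) with the block, and all 9 below 0.

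Within a run the genes differed widely. In that around Zfp87, Zfp493 had a log2 fold change of 0.071 between Zfp85 and Zfp273, which fell. Zfp595 and Zfp953, which follow Zfp455, had -0.064 and -0.083. Neighbours are often paralogs whose reads can be split: over 20% of windows were shared with another gene in 29 of the 262 genes, 6 of them called lower. Without those 29 genes, 44 of 233 (18.9%) were called lower, with the same median of -0.11.

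**Figure D5:**
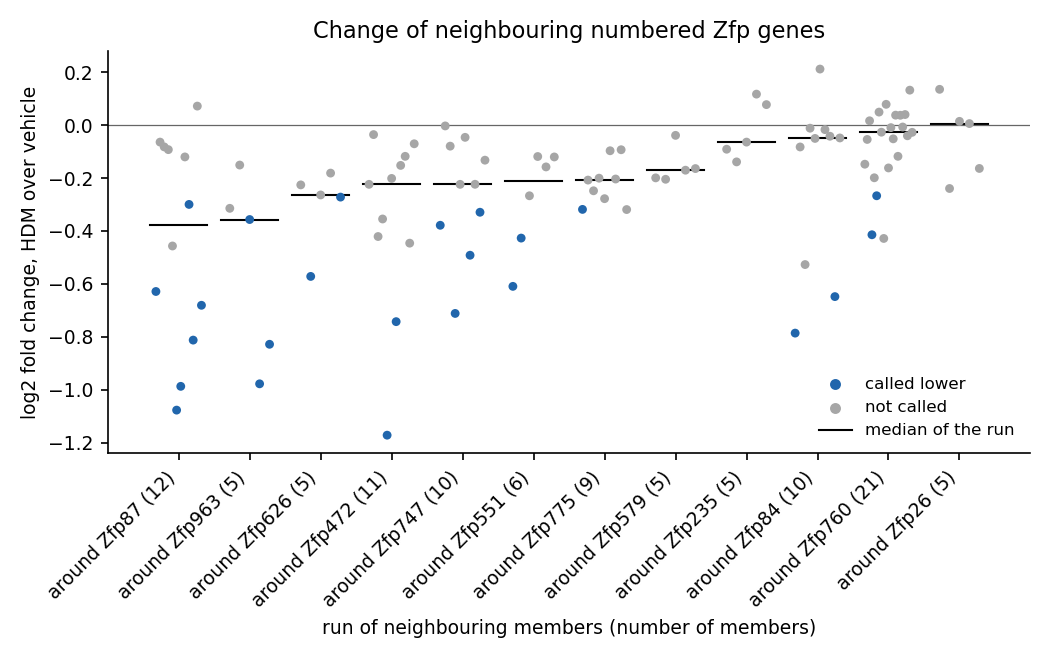
Log2 fold change, HDM over vehicle, of the genes in each of 12 runs of neighbouring numbered Zfp genes, left to right in gene order within a run, with the run's median as a line and its number of genes in brackets. Runs are sorted by median, from -0.38 around Zfp87 to 0.0054 around Zfp26, and the runs around Zfp87, Zfp472 and Zfp747 hold genes near 0 beside called falls.

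RefSeq promoters of 300 bases (250 before and 50 after the start) were found for 217 of the 262 genes, 263 in all. The letters ACTACA followed, after any 2 letters, by TCCCA, the core of the element bound by ZNF143, the human counterpart of Zfp143, were present on either strand in 32 of them (12.2%). They were present in 3.26% of promoters of tested genes and 1.47% of all 32851 promoters. The share was 13.7% in promoters of genes called lower and 11.8% in promoters of the others. With a KRAB match it was 16.6% and without 6.48%. The 32 genes ran from Zfp748 at -0.99 and Zfp85 at -0.81 to Zfp109 at 0.12, and 7 of them were called lower.

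The shorter ACTACA, which the longer element contains, was in 21.7% of promoters of the set, 25.5% of those called lower and 20.8% of the others, beside 10.7% of promoters of tested genes and 10.3% of all promoters. CCAAT was in 48.7%, 54.9% and 47.2%, beside 37.6% of promoters of tested genes and 37.4% of all. GGGCGG, the GC box, was in 48.7%, 52.9% and 47.6%, which is below the 59.7% of promoters of tested genes and above the 35.7% of all promoters. Elements read by factors of early inflammatory signalling were in few promoters, both of the set and of all tested genes. TGACGTCA was in 3.04% and TGANTCA in 3.42% of promoters of the set, beside 2.98% and 5.44% of promoters of tested genes and 1.79% and 7.81% of all. Both were in 1.96% of promoters of genes called lower, beside 3.30% and 3.77% of the others. The NF-kB element, written GGGA, any letter and TTTCC, was in 2 promoters of the set (0.760%), beside 0.521% of promoters of tested genes and 0.411% of all. Both of these 2 were promoters of genes called lower (3.92% of those promoters, beside 0% of the others).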

How the data were processed

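RNA of bone marrow-derived macrophages was made into 6 HDM and 6 vehicle libraries with a stranded messenger RNA kit, per the labels' protocols. The authors deposited raw read counts per gene symbol, with no scaling, in a table of 12 columns matched to the libraries by name. The submitters' processing notes list STAR 2.6.0c, featureCounts 2.0.6 (with Subread), cutadapt 4.5 and Trim Galore 0.6.10 as well as FastQC 0.12.1, and name the builds GRCm38 and mm39 without their roles. Neither strand setting nor annotation release is stated in the sources used here, and genes that overlap another cannot be told apart from it with certainty. Depth was 19.69 to 119.71 M counts per library, which leaves at least 15 reads in every library for each of the 262 genes.

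The counts were tested with edgeR 4.0.16 (quasi-likelihood F test, two-sided, TMM factors, filterByExpr at its defaults, group as the only term) in R 4.3.3, over 13530 genes with Benjamini-Hochberg adjustment. Calls were made at an adjusted p under 0.05. The standard error is the absolute log2 fold change over the square root of F. CPM are counts over the column total, except in the log2 differences by number, where they are scaled by TMM factors. The fits were tested on simulated data with planted changes larger than most of the called falls here, so recovery of smaller changes was not tested. Alternatives were DESeq2 1.42.0, limma-voom (limma 3.58.1), other scalings and filters, other level rules, library sets, leaving out each library, and library number as a block. The deviations of HDM and vehicle libraries of the same number from their group means correlated at 0.367 to 0.672, all over 0.1, so the numbers count as pairs, on the data and not on a label. The edgeR test stays without the block, as designed, and blocked values are given beside the results they change. HDM and vehicle libraries numbered 1 to 4 correlated at 0.19 to 0.511, and those numbered 5 and 6 at 0.608 to 0.704. Between these sets of numbers the correlations were negative, down to -0.551, so the block takes up this split.

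Proteins were translated from GENCODE M21. A finger was counted as C, 2 to 4 residues, C, 12 residues, H, 3 to 5 residues, H. The KRAB profile of 42 residues was built with pyhmmer 0.12.3 from 145 windows around a core pattern and accepted at an E-value of at most 1e-05. Windows of 50 bases, taken every 10 bases of the longest transcript, were searched in all other genes' transcripts. All 262 genes matched the RefSeq gene table by symbol.

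Genes described one by one are the 12 largest called falls and the 3 called rises with every HDM library on 1 side of the vehicle mean, the 6 with the highest vehicle level, the 3 on each side of 2 CPM, up to 4 per role list by p, and the 4 with the smallest standard error within 0.1 of 0. The genes, lists and tests were chosen with earlier results of these data known. The summed level of 1 further marker list is not reported here.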

Additional observations from a re-analysis of the deposited data

Results flagged for a closer look

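Within groups of 6, a library whose gap to the next, as a share of the group's range, exceeded Dixon's 95% critical value was sought in 92 sets of values, of which chance gives about 1 in 20, and 2 were found. HDM 3 had 0.607 CPM of Zfp941, a KRAB gene just below the 2 CPM level, where the next lowest HDM library had 1.36 CPM. Zfp941 lies outside the 262 genes, and edgeR without the block did not call it on all 12 libraries (log2 fold change -0.53, adjusted p = 0.102). Zfp941 was called lower by DESeq2 (adjusted p = 0.016) and by edgeR with the block (0.0201) on all 12 libraries, and by edgeR without HDM 3 (log2 fold change -0.41, adjusted p = 0.0228). Vehicle 3 had 8.74 CPM of Zfp932, where the next highest vehicle library had 8.06 CPM, and Zfp932 was not called in any fit.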

How the results depend on the processing

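The number of genes called lower was 50 and ran from 34 to 45 when 1 library was left out, lowest without Vehicle 3. It was 40 with no low-count filter, 60 with DESeq2, 55 with limma-voom, 56 with total library size and 57 with upper-quartile factors. Of the 50 calls, 32 held without any 1 library and 18 were lost without at least 1. The median log2 fold change was -0.12 to -0.086 without 1 library and -0.13 with total library size. Other level rules gave 46 of 256 (2 CPM over all 12), 42 of 253 (2 CPM over HDM), 52 of 294 (1 CPM) and 34 of 188 (5 CPM).

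Library number as a block moved the calls over all genes to 1990, the genes called lower to 90 and those called higher to 11, and the shares called lower by level to 32.4%, 36.2%, 46.2%, 30.0% and 11.8%. It raised the call of 9 of the 42 genes described one by one and changed no other call among them. Numbers 5 and 6 alone gave 1139 calls over all genes against 727, and 5 genes called higher. The shares called lower were 20% (10 of 50) at 20 to 50 CPM and 11.8% (2 of 17) above. Over all tested genes in the same bins the shares also rose, to 5.07% and 4.6% from 3.06% and 1.44% with all 12 libraries. The cause was not tested. Genes called higher ran from 1 to 3 when 1 library was left out, with 1 without HDM 3, HDM 5 or Vehicle 1. Zfp217 lost its call with total library size, and Zfp438 with no filter and in numbers 1 to 4.

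Among these 42 genes, signs turned in uncalled ones only. Zfp106 was at -0.0067 with total library size and -0.0035 with upper-quartile factors, and Zfp809 at 0.0077 in numbers 5 and 6. Zfp947 was at -0.17 in numbers 5 and 6 and ran from -0.11 (without HDM 4) to 0.13 when 1 library was left out, Zfp961 was at 0.16 and ran from -0.057 to 0.022, and Zfp932 was at -0.018, at -0.00013 with limma-voom, and ran from -0.0022 to 0.044. Genes below about 5 CPM have the widest errors, and reads of close paralogs can be split.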
